A study of Mus musculus with 11 samples.

Results

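Chemokines are small secreted proteins that steer the movement of leukocytes, and their receptors are 7-transmembrane receptors on the cells that respond. The family was taken from gene probes whose accession is a transcript of a gene named Ccl, Cxcl, Ccr or Cxcr with a number, or of Cx3cl1, Cx3cr1, Xcl1 or Xcr1. It held 62 probes of 52 genes, of 20144 genes with a probe on the array. These were 34 ligands and 18 receptors, and 10 further genes that fit the naming rule had no probe matched here. Livers came from db/db mice, which have no working leptin receptor and become obese and diabetic. In the treated group, 6 samples (replicates 1 to 6) came from db/db mice treated with 3c7.v44, an antibody that targets the glucagon receptor (anti-GCGR), at 5 mg/kg. In the comparison group, 5 samples (replicates 1, 3, 4, 5 and 6) came from db/db mice labelled PBS, which the series' design line calls untreated. The length of treatment, the age of the mice and whether each sample is a separate mouse are not given in the sources used here, so the p-values cover only the variation among the samples at hand.

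Each sample was hybridised to its own 2-colour array, with liver cRNA in Cy5 and a pooled mouse reference in Cy3 on every array, and values are log2 ratios of liver to reference. Such a value depends on how much of the transcript the reference holds, so levels of different genes are not set against each other. Of the 62 probes, 54 exceeded the Cy5 background clearly (the scanner software's "well above background" mark) on at least 1 array, 39 on all 11 arrays and 8 on none. Counted by array, 43 to 52 of them were well above background on anti-GCGR arrays and 41 to 52 on PBS arrays. Probes well above background on at least 5 of the 11 arrays entered the tests, and a gene with several such probes was represented by the brightest, which left 47 probes of 37 genes. The median Cy5 spot signal was 85 to 110 per array against a local background of 26 to 27, and no spot was saturated. The 8 hepatocyte markers taken (Alb and Hnf4a among them) lay at 4.38 to 7.47 on all 11 arrays, well above the reference. Gcgr itself was at 6.72 ± 0.15 in anti-GCGR livers (SD, n = 6) and 6.54 ± 0.06 in PBS livers (SD, n = 5). The log2 fold change was 0.18 ± 0.07 (SE, adjusted p in limma = 0.108).

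Chemokines are grouped by the spacing of their first cysteines into the CC, CXC, CX3C and XC classes. They bind G protein-coupled receptors, which signal through Gi proteins and are turned off by arrestins. In liver they are made by hepatocytes, Kupffer cells, endothelial cells, stellate cells and infiltrating leukocytes, and they guide monocytes, lymphocytes and granulocytes from the sinusoids into the tissue. Many ligand genes are switched on by NF-kB, a transcription factor of inflammatory signals, and others are expressed without it. For that reason the 250 bases before each start site were searched, on both strands, for the NF-kB motif in a strict form (GGGA, any 2 bases and TTCC) and a loose form (GGG, any 5 bases and CC), of which the strict form is a special case.

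The promoter windows of 5 genes that differed between the groups are shown first, followed by those of 2 inflammatory ligands whose difference did not pass the test. Ccl6 with Ccl9, and Cx3cr1 with Ccr8, are shown because they are neighbours in the genome whose brightest probes moved in opposite directions. The other kept probe of Ccr8 did not fall, as given below. Cxcl12 is shown because it had the smallest adjusted p of the family. Sequences are from RefSeq on GRCm38.p6, written 5′ to 3′ on the strand of the gene, and capitals mark matches to the loose motif. The windows are chr6:117168285-117168534 on the plus strand for Cxcl12, chr9:120068297-120068546 on the minus strand for Cx3cr1 and chr9:120091883-120092132 on the plus strand for Ccr8. They are chr11:83593088-83593337 for Ccl6 and chr11:83578637-83578886 for Ccl9, both on the minus strand. For the inflammatory pair they are chr5:90890995-90891244 on the plus strand for Cxcl1 and chr5:92348890-92349139 on the minus strand for Cxcl10.
Cxcl12: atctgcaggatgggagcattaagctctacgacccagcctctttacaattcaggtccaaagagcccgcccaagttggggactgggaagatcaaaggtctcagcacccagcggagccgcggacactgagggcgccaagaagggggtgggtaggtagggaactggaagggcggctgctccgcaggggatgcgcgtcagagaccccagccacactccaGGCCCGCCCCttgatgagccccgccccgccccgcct
Cx3cr1: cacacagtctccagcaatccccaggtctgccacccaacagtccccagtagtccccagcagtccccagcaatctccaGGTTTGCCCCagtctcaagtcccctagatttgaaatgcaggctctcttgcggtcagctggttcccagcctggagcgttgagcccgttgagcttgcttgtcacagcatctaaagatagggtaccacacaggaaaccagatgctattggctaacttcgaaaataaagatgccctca
Ccr8: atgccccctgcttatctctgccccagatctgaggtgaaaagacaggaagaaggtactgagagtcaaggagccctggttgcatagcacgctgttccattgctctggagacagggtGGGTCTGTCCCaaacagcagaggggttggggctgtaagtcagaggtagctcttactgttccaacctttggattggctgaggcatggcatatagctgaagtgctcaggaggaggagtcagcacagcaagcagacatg
Ccl6: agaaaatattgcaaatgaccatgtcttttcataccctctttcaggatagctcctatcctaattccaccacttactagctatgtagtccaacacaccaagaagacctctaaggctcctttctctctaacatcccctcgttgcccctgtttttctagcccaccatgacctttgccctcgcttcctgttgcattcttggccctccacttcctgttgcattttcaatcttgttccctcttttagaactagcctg
Ccl9: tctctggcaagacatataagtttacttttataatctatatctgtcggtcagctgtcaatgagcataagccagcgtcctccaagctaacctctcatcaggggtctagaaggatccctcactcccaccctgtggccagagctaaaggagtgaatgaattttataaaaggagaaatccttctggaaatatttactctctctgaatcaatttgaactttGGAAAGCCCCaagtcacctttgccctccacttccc
Cxcl1: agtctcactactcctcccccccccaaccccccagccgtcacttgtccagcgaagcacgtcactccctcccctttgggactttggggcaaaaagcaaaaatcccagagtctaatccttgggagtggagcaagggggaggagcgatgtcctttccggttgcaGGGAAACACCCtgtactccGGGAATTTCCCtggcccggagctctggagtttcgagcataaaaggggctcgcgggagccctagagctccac
Cxcl10: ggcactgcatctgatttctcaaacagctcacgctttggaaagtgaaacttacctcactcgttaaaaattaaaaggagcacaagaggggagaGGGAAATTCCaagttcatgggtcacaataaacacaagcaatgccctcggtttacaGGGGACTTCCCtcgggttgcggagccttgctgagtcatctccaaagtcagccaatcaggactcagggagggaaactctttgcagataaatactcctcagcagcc

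A window was found for 39 of the 52 genes, with 43 windows in all because some genes have several starts. The strict motif was in 6 of them (14%), against 1.21% of all 32851 windows of the same length. Those 6 genes were Ccl1, Ccr3, Cxcl1, Cxcl2, Cxcl3 and Cxcl10. Cxcl1, Cxcl2 and Cxcl3 lie in the same cluster on chromosome 5 and share the string GGGAATTTCCC, so they are not 3 unrelated matches. The loose motif was in 58.1% of the family's windows, against 45.8% of all windows. Of the 11 genes that differed between the groups, 9 had a window, none of which held the strict motif and 5 of which held the loose one. Of the 6 genes with the strict motif, 3 (Ccl1, Cxcl2 and Cxcl3) were too dim to be tested, and the other 3 did not pass the test. A match is a string of letters and not a measured binding site.

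Of the 37 genes tested, 11 (29.7%) differed between anti-GCGR and PBS livers at an adjusted p under 0.05 (limma, two-sided, Benjamini-Hochberg over 15970 genes), against 14.6% of all genes tested. There were 7 that were higher in anti-GCGR livers, against 8.97% of all genes in that direction, and 4 that were lower, against 5.66%. Those that rose were the ligands Ccl6, Ccl24, Cxcl14 and Cxcl5 and the receptors Cx3cr1, Ccr6 and Ccr2. Those that fell were the ligands Cxcl12, Ccl25 and Ccl9 and the receptor Ccr8. The other 26 did not pass. The median log2 fold change was 0.08 over the 37 genes and 0.01 over all genes, and 24 of the 37 were positive. The members' median was 0.02 without PBS replicate 3, 0.04 without anti-GCGR replicate 6, 0.05 without PBS replicate 1 and 0.14 without PBS replicate 6. It was 0.02 with quantile scaling, 0.04 with median centring or with no filter on dim probes, and 0.17 with the scanner software's ratio. There was no overlap between the groups for 3 members (8.11%), Cxcl12, Ccr2 and Ccl24, against 6.65% of all genes. In whole liver, fewer cells of a type and less RNA per cell cannot be told apart. With quantile scaling between arrays 6 members rose and 6 fell (32.4% called, against 14.3% of all genes). Without PBS replicate 1 the count was 7 (3 higher, 4 lower), or 18.9% against 7.81% of all genes. The split of calls over all genes was 1433 higher and 904 lower here, and it moved with the scaling, to 581 and 2145 with median centring, 979 and 1185 with the scanner software's ratio, 1175 and 1115 with Cy5 alone, and 1151 and 1132 with quantile scaling.

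**Figure D1:**
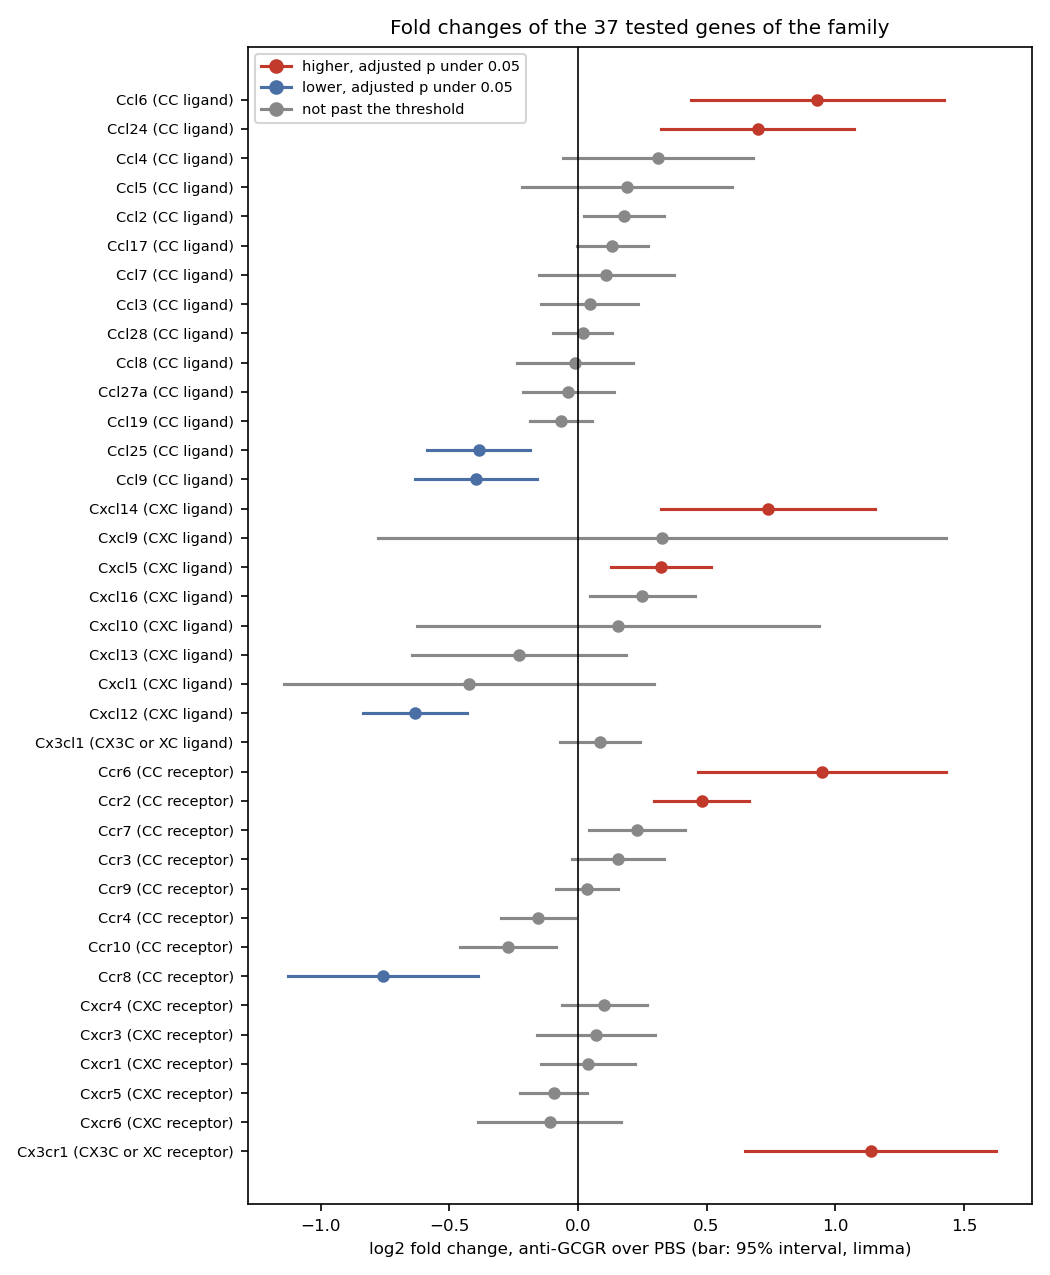
Log2 fold change of each of the 37 tested genes, anti-GCGR over PBS, ordered by class and size (x axis, log2 units), with bars for the 95% interval of the limma fit. Red marks the 7 genes that were higher, blue the 4 that were lower and grey the 26 that did not pass an adjusted p of 0.05; the longest bars are those of Cxcl9, Cxcl10 and Cxcl1.

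Array by array, the 11 genes, which the test on these same arrays had picked, had features in common. How often the called genes outside the family share these features was not counted. On each of the 3 slides that held the arrays, the difference between anti-GCGR and PBS arrays had the sign of the overall fold change for all 11. Slide 2 held anti-GCGR replicates 2 and 5 with PBS replicate 5 alone, and the difference was smallest there for 8 of the 11. At least 5 of the 6 anti-GCGR arrays lay beyond every PBS array for each of the 11 genes. The exception, where there was one, was always anti-GCGR replicate 5, which was the antibody array nearest to the PBS mean for all 11 genes. Averaged over the 7 genes that rose, the difference from the PBS mean was 0.81 to 1.01 on the other anti-GCGR arrays, 0.12 on anti-GCGR replicate 5, and -0.20 to 0.10 on PBS arrays. Averaged over the 4 that fell, it was -0.69 to -0.54 on the other anti-GCGR arrays, -0.10 on replicate 5, and -0.14 to 0.12 on PBS arrays. In the Cy3 channel, which holds the same reference everywhere, the groups differed by between -0.16 and 0.15 (log2 units) for these 11 genes. With slide as a block 12 members passed (32.4%, against 17.5% of all genes), the same 11 and Ccl2. Without anti-GCGR replicate 5, 13 members passed (35.1%, against 24.2% of all genes).

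**Figure D2:**
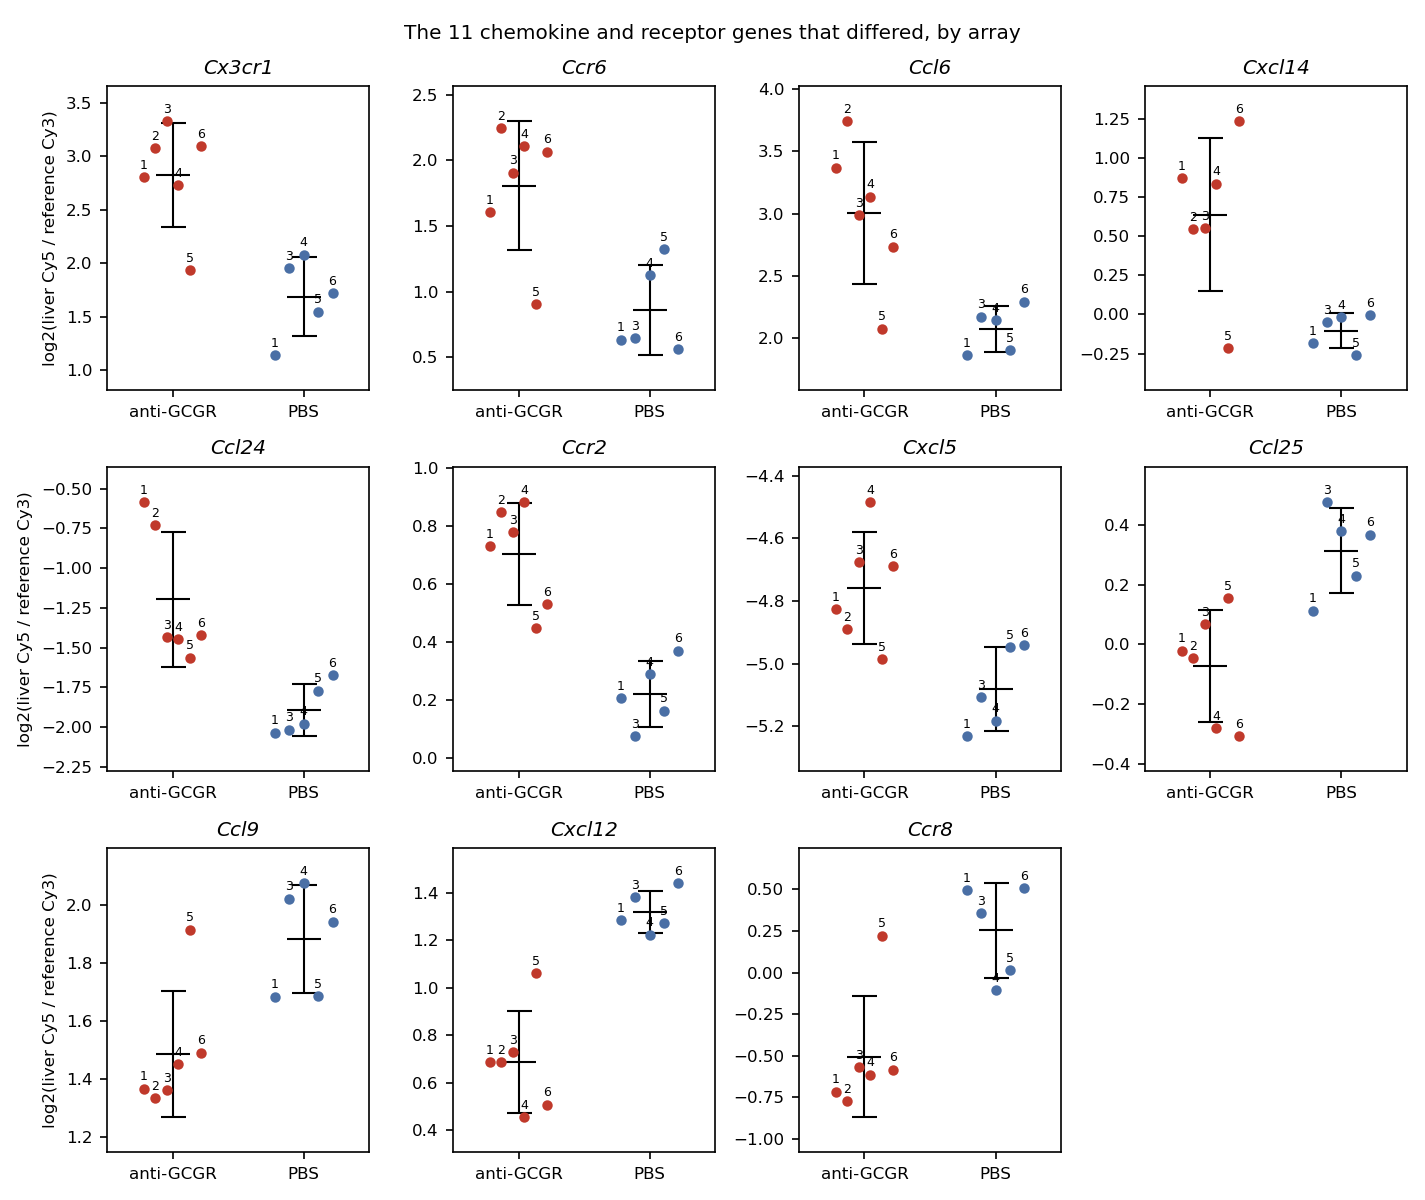
The log2 ratio of liver over reference on every array (y axis) for the 11 genes that differed, with anti-GCGR arrays in red on the left of each panel and PBS arrays in blue on the right, numbered by replicate; bars show the mean and SD. Array 5 of the anti-GCGR group is the red point nearest to the blue ones in every panel.

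Among the 14 CC ligands tested, 2 rose, 2 fell and 10 did not pass. Ccl6 is a mouse chemokine of macrophages and other myeloid cells. It had log2 ratios of 3.37, 3.74, 2.99, 3.14, 2.08 and 2.74 in anti-GCGR replicates 1 to 6, against 1.87, 2.18, 2.15, 1.90 and 2.30 in PBS replicates 1, 3, 4, 5 and 6. The antibody arrays were higher except replicate 5, which lay among the PBS arrays. The gene was 1.91-fold higher in anti-GCGR livers (log2 fold change 0.93 ± 0.23, SE, adjusted p in limma = 0.0189). Within slides 1, 2 and 3 the difference was 1.25, 1.01 and 0.63. Without PBS replicate 1 the gene no longer passed, and the same held with the scanner software's ratio, where the log2 fold change was 0.98 (adjusted p in limma = 0.104).

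Ccl24, known as eotaxin-2, attracts eosinophils through Ccr3. Its values were -0.58, -0.73, -1.43, -1.45, -1.56 and -1.42 in anti-GCGR replicates 1 to 6, against -2.04, -2.02, -1.98, -1.77 and -1.67 in PBS replicates 1, 3, 4, 5 and 6. The groups did not overlap, and replicates 1 and 2 stood above the other antibody arrays. It rose 1.62-fold in anti-GCGR livers (log2 fold change 0.70 ± 0.17, SE, adjusted p in limma = 0.0201). The difference was 0.99, 0.63 and 0.42 within slides 1, 2 and 3, and the gene did not pass without PBS replicate 1 or in Cy5 alone (adjusted p in limma = 0.0600 in Cy5 alone). Its receptor gene Ccr3 had a fold change of 0.16 on the log2 scale (adjusted p in limma = 0.225).

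Ccl9, a mouse CC ligand of myeloid cells that signals through Ccr1, went the other way. It was at 1.37, 1.33, 1.36, 1.45, 1.92 and 1.49 in anti-GCGR replicates 1 to 6, against 1.68, 2.02, 2.08, 1.68 and 1.94 in PBS replicates 1, 3, 4, 5 and 6. All antibody arrays but replicate 5 were below every PBS array. The fall was 1.32-fold (log2 fold change -0.40 ± 0.11, SE, adjusted p in limma = 0.0316), with differences of -0.47, -0.06 and -0.56 within slides 1, 2 and 3. When 1 array at a time was left out, it passed only without anti-GCGR replicate 5, PBS replicate 1 or PBS replicate 5, and it did not pass in Cy5 alone.

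Ccl25, the ligand of Ccr9 that is best known from thymus and small intestine, was at -0.02, -0.05, 0.07, -0.28, 0.15 and -0.31 in anti-GCGR replicates 1 to 6, against 0.11, 0.48, 0.38, 0.23 and 0.37 in PBS replicates 1, 3, 4, 5 and 6. The only overlap was between anti-GCGR replicate 5 and PBS replicate 1. The log2 fold change was -0.39 ± 0.09 (SE, adjusted p in limma = 0.0181) on the brightest probe and -0.17 on the other kept probe (adjusted p in limma = 0.212 over all probes). The receptor gene Ccr9 had a fold change of 0.04 on the log2 scale (adjusted p in limma = 0.720). Within slides 1, 2 and 3 Ccl25 differed by -0.40, -0.17 and -0.54.

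The remaining 10 CC ligands did not pass. Ccl2, the main ligand of Ccr2, was at -2.19, -2.25, -2.12, -2.18, -2.22 and -1.96 in anti-GCGR replicates 1 to 6, against -2.38, -2.28, -2.46, -2.43 and -2.12 in PBS replicates 1, 3, 4, 5 and 6. All antibody arrays were above every PBS array but replicate 6, which exceeded all of them except anti-GCGR replicate 6. The log2 fold change was 0.18 ± 0.07 (SE, adjusted p in limma = 0.111), and it passed with slide as a block (0.20, adjusted p in limma = 0.0269) and without PBS replicate 6 (adjusted p in limma = 0.0436). Ccl5, an attractant of T cells, had values of -2.16, -2.11, -2.24, -1.71, -2.18 and -1.37 in anti-GCGR livers and -2.36, -2.48, -2.35, -2.07 and -1.52 in PBS livers, in the same order. Its highest value lay in replicate 6 of each group, and its log2 fold change was 0.19 ± 0.19 (SE, adjusted p in limma = 0.545), with 0.07 without anti-GCGR replicate 6, 0.11 without PBS replicate 3 and 0.35 without PBS replicate 6. The other 8 CC ligands tested, Ccl3, Ccl4, Ccl7, Ccl8, Ccl17, Ccl19, Ccl27a and Ccl28, had log2 fold changes of -0.07 to 0.31, none of which passed. Ccl19 and Ccl27a have near-identical gene copies, and whether their probes tell the copies apart was not tested.

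Of the 8 CXC ligands tested, 2 rose, 1 fell and 5 did not pass. Cxcl12, also called SDF-1, binds Cxcr4 and the atypical receptor Ackr3 and is made by stromal and endothelial cells. On its brightest probe it was at 0.69, 0.69, 0.73, 0.46, 1.06 and 0.51 in anti-GCGR replicates 1 to 6, against 1.28, 1.38, 1.22, 1.27 and 1.44 in PBS replicates 1, 3, 4, 5 and 6. Every antibody array was below every PBS array, and the probe was the brightest of the family, at 8679 to 18747 Cy5 units. The gene was 1.55-fold lower in anti-GCGR livers (log2 fold change -0.63 ± 0.09, SE, adjusted p in limma = 0.00506), with differences of -0.68, -0.40 and -0.79 within slides 1, 2 and 3. The call held when any 1 array was left out.

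The second kept Cxcl12 probe did not show this. It read -0.76, -0.94, -0.64, -0.99, -0.74 and -0.85 in anti-GCGR replicates 1 to 6, against -0.85, -0.70, -0.64, -0.76 and -0.87 in PBS replicates 1, 3, 4, 5 and 6, so that the groups overlapped throughout. Its log2 fold change was -0.06 ± 0.07 (SE, adjusted p in limma = 0.661 over all probes), and the mean of both probes gave -0.35 (adjusted p in limma = 0.0107). Cxcl12 has several transcript isoforms; which of them each probe reads was not tested. The receptor gene Cxcr4 was at -1.65, -1.79, -1.91, -1.56, -1.85 and -1.68 in anti-GCGR livers and -1.72, -2.01, -1.93, -1.85 and -1.71 in PBS livers, in the same order. The groups overlapped, and its log2 fold change was 0.10 ± 0.08 (SE, adjusted p in limma = 0.406). Ackr3 did not pass (adjusted p in limma = 0.999).

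Cxcl14 is a CXC ligand of epithelia whose receptor is not settled. It had values of 0.87, 0.54, 0.55, 0.83, -0.22 and 1.23 in anti-GCGR replicates 1 to 6, against -0.19, -0.05, -0.02, -0.26 and -0.00 in PBS replicates 1, 3, 4, 5 and 6. Again replicate 5 alone lay among the PBS arrays. The rise was 1.67-fold (log2 fold change 0.74 ± 0.19, SE, adjusted p in limma = 0.0240), with differences of 0.95, 0.42 and 0.92 within slides 1, 2 and 3. The call was lost without anti-GCGR replicate 4 or PBS replicate 1.

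Cxcl5, an attractant of neutrophils that acts through Cxcr2, was dim, at 34 to 60 Cy5 units, and was well above background on 5 anti-GCGR and 4 PBS arrays. It read -4.83, -4.89, -4.68, -4.48, -4.99 and -4.69 in anti-GCGR replicates 1 to 6, against -5.23, -5.11, -5.18, -4.95 and -4.94 in PBS replicates 1, 3, 4, 5 and 6. Replicate 5 lay among the PBS arrays and the others were above them. The log2 fold change of 0.32 ± 0.09 (SE, adjusted p in limma = 0.0309) compared with a difference of 0.11 in the Cy5 channel and -0.16 in the Cy3 channel taken separately. It was lost without any 1 of anti-GCGR replicates 3, 4 and 6 and PBS replicates 1, 3 and 4, and was 0.01 with quantile scaling, 0.15 in Cy5 alone and 0.68 with the scanner software's ratio (adjusted p in limma = 0.156 for the last).

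Cxcl9 and Cxcl10 differed between the groups by less than the SD within either group. They are induced by interferon gamma and attract T cells and NK cells through Cxcr3. Cxcl9 was at 3.95, 2.97, 3.09, 3.48, 3.18 and 4.81 in anti-GCGR replicates 1 to 6, against 2.47, 1.68, 3.28, 3.80 and 5.06 in PBS replicates 1, 3, 4, 5 and 6. Cxcl10 was at -0.07, -0.73, -0.12, -0.16, -0.34 and 0.88 in the anti-GCGR replicates, against -0.73, -0.94, -0.34, -0.50 and 1.28 in the PBS replicates. Both genes were highest in replicate 6 of each group. Their log2 fold changes were 0.33 ± 0.51 (SE, adjusted p in limma = 0.722) for Cxcl9, whose other probe gave 0.13, and 0.16 ± 0.36 (SE, adjusted p in limma = 0.817) for Cxcl10. Both turned negative without PBS replicate 3 (-0.07 for Cxcl9 and -0.02 for Cxcl10), and Cxcl10 also without anti-GCGR replicate 6 (-0.04).

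Cxcl1, an attractant of neutrophils whose promoter holds the strict NF-kB motif, was at -2.26, -0.63, -1.91, -2.06, -1.32 and -1.98 in anti-GCGR replicates 1 to 6, against -1.49, -2.15, -1.45, -0.23 and -1.03 in PBS replicates 1, 3, 4, 5 and 6. The highest arrays were anti-GCGR replicate 2 and PBS replicate 5, and the groups overlapped. Those same arrays had the highest mean of the neutrophil marker list in their groups, 0.46 and 0.76 above the PBS mean, and the part of this in the Cxcl1 values was not tested. The log2 fold change was -0.42 ± 0.33 (SE, adjusted p in limma = 0.434), with -0.16 without PBS replicate 5 and -0.64 without anti-GCGR replicate 2 or PBS replicate 3. Cxcl16, a membrane-bound ligand of Cxcr6, was at 1.75, 1.59, 1.70, 1.46, 1.43 and 1.77 in anti-GCGR livers and 1.45, 1.27, 1.66, 1.25 and 1.20 in PBS livers, in the same order. PBS replicate 4 exceeded anti-GCGR replicates 2, 4 and 5, and the other PBS arrays lay at the level of the lowest antibody arrays or below it. Its log2 fold change was 0.25 ± 0.09 (SE, adjusted p in limma = 0.0899), and it passed without anti-GCGR replicate 5 (adjusted p in limma = 0.0392) or PBS replicate 4 (adjusted p in limma = 0.0349). Cxcl13, the B cell attractant, had a fold change of -0.23 on the log2 scale (adjusted p in limma = 0.468).

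**Figure D3:**
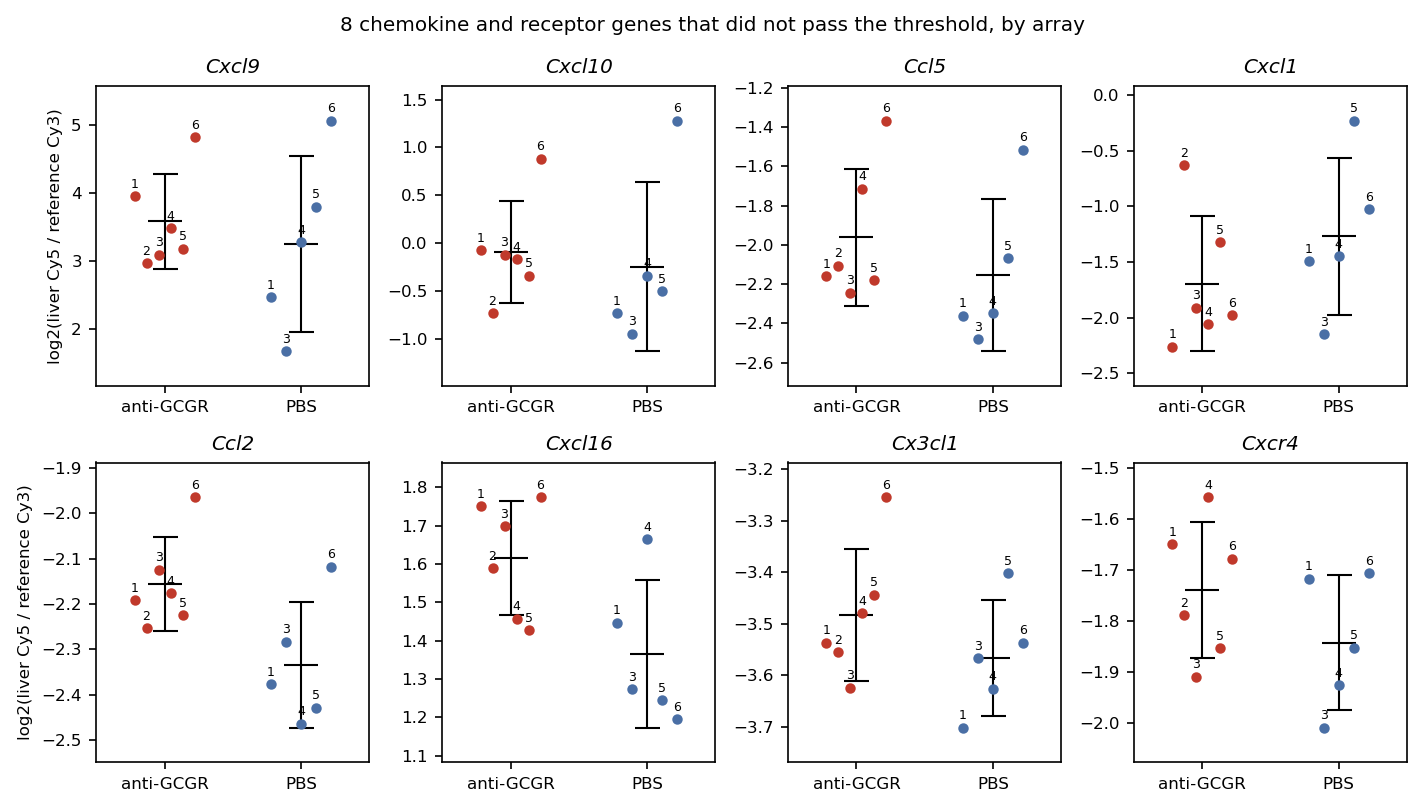
The log2 ratio of liver over reference on every array (y axis) for 8 members that did not pass the threshold, with anti-GCGR arrays in red on the left of each panel and PBS arrays in blue on the right, numbered by replicate; bars show the mean and SD. In the panels of Cxcl9, Cxcl10, Ccl5 and Ccl2, replicate 6 is the highest point of both groups.

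Among the 8 CC receptors tested, 2 rose, 1 fell and 5 did not pass. Ccr2, the receptor of inflammatory monocytes for Ccl2, was at 0.73, 0.85, 0.78, 0.88, 0.45 and 0.53 in anti-GCGR replicates 1 to 6, against 0.21, 0.08, 0.29, 0.16 and 0.37 in PBS replicates 1, 3, 4, 5 and 6. The groups did not overlap, although the probe was dim, at 42 to 88 Cy5 units, and not well above background on 1 PBS array. The gene was 1.40-fold higher in anti-GCGR livers (log2 fold change 0.48 ± 0.09, SE, adjusted p in limma = 0.00633). The difference was 0.56, 0.48 and 0.43 within slides 1, 2 and 3. The call held when any 1 array was left out. The size of the change depended on the background correction, with 0.77 at a normexp offset of 16 and 1.39 with the scanner software's ratio (adjusted p in limma = 0.00793 and 0.0483).

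Ccr6, the receptor for Ccl20 on B cells, some helper T cells and immature dendritic cells, was at 1.61, 2.25, 1.91, 2.11, 0.91 and 2.07 in anti-GCGR replicates 1 to 6, against 0.63, 0.65, 1.13, 1.32 and 0.56 in PBS replicates 1, 3, 4, 5 and 6. All antibody arrays but replicate 5 were above every PBS array. It was 1.93-fold higher in anti-GCGR livers (log2 fold change 0.95 ± 0.22, SE, adjusted p in limma = 0.0166), with differences of 0.98, 0.25 and 1.38 within slides 1, 2 and 3. Ccl20 was well above background on no array. None of 6 B cell markers tested passed in the limma fit, and none had an unadjusted p under 0.05. Of 9 T cell markers only Cd4 passed, at 0.57 (adjusted p in limma = 0.0217). The median log2 fold change of that list was 0.02, with 5 positive and 4 negative. Of 6 dendritic cell markers Itgax rose by 0.59 and Siglech had -0.32 (adjusted p in limma = 0.0187 and 0.0241), and 3 of the 6 were negative. The part of these cells in the Ccr6 values was not tested.

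Ccr8, a receptor of regulatory and type 2 helper T cells that binds Ccl1 and, in mouse, Ccl8, fell. It was at -0.72, -0.77, -0.57, -0.61, 0.22 and -0.58 in anti-GCGR replicates 1 to 6, against 0.49, 0.36, -0.11, 0.01 and 0.51 in PBS replicates 1, 3, 4, 5 and 6. Replicate 5 stood apart from the other antibody arrays, which all lay below the PBS arrays. The gene was 1.69-fold lower on its brightest probe (log2 fold change -0.76 ± 0.17, SE, adjusted p in limma = 0.0146), with differences of -0.86, -0.29 and -1.01 within slides 1, 2 and 3. The second kept probe read -0.02, 0.34, 0.19, 0.00, 0.46 and 0.19 in anti-GCGR livers and -0.12, 0.02, -0.22, 0.54 and 0.01 in PBS livers, in the same order. On that probe the groups overlapped and the log2 fold change was 0.15 ± 0.13 (SE, adjusted p in limma = 0.504 over all probes). The mean of the 2 probes gave -0.30 (adjusted p in limma = 0.105), so the call rests on 1 probe. With the scanner software's ratio the brightest probe gave -1.36 (adjusted p in limma = 0.0183). Among its ligands, Ccl1 was well above background on no array, and Ccl8 had a fold change of -0.01 on the log2 scale (adjusted p in limma = 0.964).

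The other CC receptors did not pass. Ccr10, the receptor for Ccl27 and Ccl28 in skin and mucosa, came nearest, with a fold change of -0.27 on the log2 scale (adjusted p in limma = 0.0526) and 5 of 6 antibody arrays below every PBS array. Ccr7, which leads lymphocytes and dendritic cells to lymph nodes, had 0.23 (adjusted p in limma = 0.0912). Ccr3, Ccr4 and Ccr9 lay between -0.16 and 0.16. None of the 5 CXC receptors passed in the limma fit, and none had an unadjusted p under 0.05 (log2 fold changes of -0.11 to 0.10 for Cxcr1, Cxcr3, Cxcr4, Cxcr5 and Cxcr6).

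Cx3cr1, the receptor for the membrane-bound ligand Cx3cl1, marks patrolling monocytes and several kinds of tissue macrophage. Its log2 ratios were 2.81, 3.07, 3.33, 2.73, 1.93 and 3.09 in anti-GCGR replicates 1 to 6, against 1.14, 1.96, 2.08, 1.55 and 1.72 in PBS replicates 1, 3, 4, 5 and 6. All antibody arrays but replicate 5 were above every PBS array. The gene was 2.20-fold higher in anti-GCGR livers (log2 fold change 1.14 ± 0.23, SE, adjusted p in limma = 0.00894), with differences of 1.16, 0.96 and 1.37 within slides 1, 2 and 3. The call held when any 1 array was left out. This was the largest fold change of the family on the brightest probes, but the order depended on the processing. With the scanner software's ratio Cx3cr1 was at 1.21, below the sizes of Ccr2, Ccr8 and Ccr6, and with the mean of all kept probes it was at 0.78, below Ccr6 at 0.95 and Ccl6 at 0.93.

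The second Cx3cr1 probe went the same way by less. It read 0.57, 0.67, 0.93, 1.03, 0.34 and 0.83 in anti-GCGR replicates 1 to 6, against 0.27, -0.01, 0.54, 0.32 and 0.39 in PBS replicates 1, 3, 4, 5 and 6. Here too anti-GCGR replicate 5 was the only antibody array that overlapped the PBS arrays. The log2 fold change was 0.43 ± 0.12 (SE, adjusted p in limma = 0.0399 over all probes). The ligand gene Cx3cl1 was at -3.54, -3.56, -3.62, -3.48, -3.44 and -3.25 in anti-GCGR livers and -3.70, -3.57, -3.63, -3.40 and -3.54 in PBS livers, in the same order. The groups overlapped, and its log2 fold change was 0.08 ± 0.07 (SE, adjusted p in limma = 0.474) and turned to -0.04 with median centring and -0.06 with quantile scaling.

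**Figure D4:**
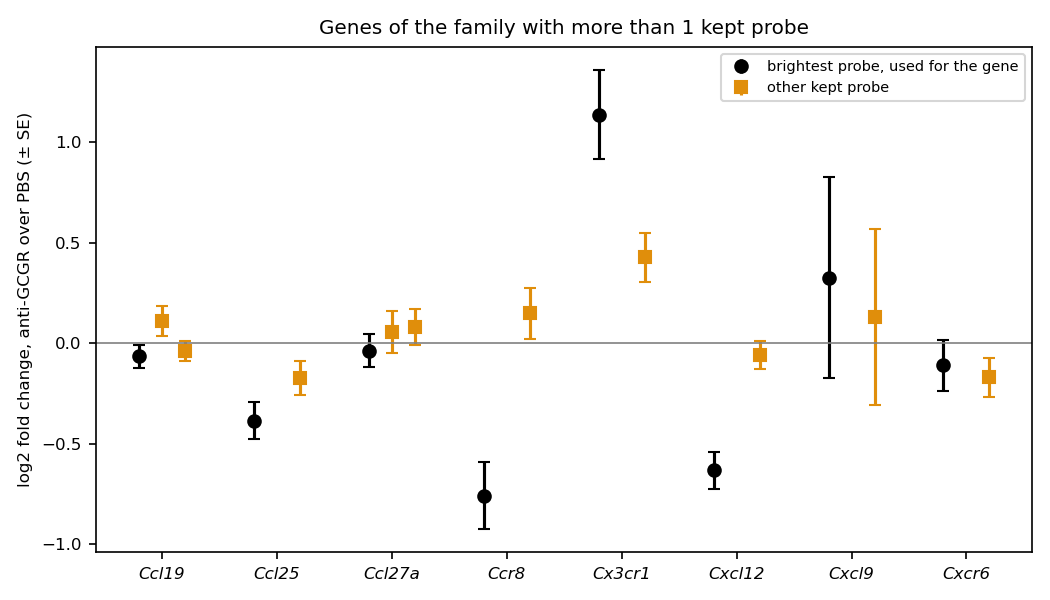
Log2 fold change, anti-GCGR over PBS (y axis, log2 units), of each kept probe of the 8 genes with more than 1 kept probe; black circles are the brightest probe, which stands for the gene, orange squares are the other probes, and bars are the SE. For Cxcl12 and Ccr8 the brightest probe lies far below 0 and the other near or above it, while for Cx3cr1 both lie above 0.

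Of the 8 genes with more than 1 kept probe, the other 4 were Ccl19, Ccl27a, Cxcl9 and Cxcr6, none of which had a probe that passed. Neighbouring members of the family did not all move the same way, and many neighbours in its clusters were not tested. On chromosome 11 Ccl9 lies between Ccl5 and Ccl6, followed by Ccl3 and Ccl4. Of these, Ccl9 fell and Ccl6 rose, as given above, while the other 3 did not pass. The call of Ccl9 was lost in 8 of the 11 fits that left out 1 array. On chromosome 9 Ccr8 follows Cx3cr1. Ccr8 fell on its brightest probe but not on the other, while Cx3cr1 rose. On the same chromosome Ccr2 follows Ccr3, and both had positive log2 fold changes (0.48 and 0.16), of which only that of Ccr2 passed.

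The 15 genes that were not kept were the ligands Ccl1, Ccl11, Ccl12, Ccl20, Ccl22, Ccl26, Cxcl2, Cxcl3, Cxcl15, Cxcl17 and Xcl1 and the receptors Ccr1, Ccr1l1, Cxcr2 and Xcr1. Ccl1, Ccl11, Ccl20, Ccl22, Ccl26, Ccr1, Cxcl3 and Xcr1 were well above background on no array. Cxcr2, the main neutrophil chemokine receptor, was so on 1 anti-GCGR array and 3 PBS arrays. Cxcl2, a macrophage-derived attractant of neutrophils, was so on 2 anti-GCGR arrays and no PBS array. The other 5, Ccl12, Ccr1l1, Cxcl15, Cxcl17 and Xcl1, were so on at most 2 arrays of either group. For these genes a difference was not detectable on this array, and nothing is said of their level. Each of the 37 kept genes was well above background on at least 1 array of each group.

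Replicate 6 held the highest value of both groups for 10 of the 37 members (27.0%), against 4.63% of all genes. These were Ccl2, Ccl4, Ccl5, Ccl7, Ccl8, Cxcl9, Cxcl10, Cxcl14, Cxcr3 and Cxcr6. Both replicate 6 arrays were on slide 3. The mean of the T cell marker list, as difference from its PBS mean, was highest on those same arrays, at 0.17 on anti-GCGR replicate 6 and 0.18 on PBS replicate 6. That of the NK cell list was likewise highest there, at 0.17 and 0.20, and so was that of the dendritic cell list, at 0.18 and 0.12. In all, 6 of 18 lists were highest on replicate 6 of both groups, the others being those of receptor signalling, NF-kB and cytokines, and adhesion molecules. The part of these cells in the values of replicate 6 was not tested. Without PBS replicate 6, 11 members passed (29.7%, against 10.5% of all genes).

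Genes that act beside the family were taken from 5 lists. Among atypical receptors and platelet chemokines outside the naming rule, 4 of 11 tested rose and none fell. They included Pf4, the platelet chemokine also called Cxcl4, at 0.59 ± 0.09 (log2 fold change, SE, adjusted p in limma = 0.00506), and the scavenging receptor Ackr2, which removes inflammatory CC ligands, at 0.37 ± 0.11 (SE, adjusted p in limma = 0.0479). Ppbp, the platelet chemokine also called Cxcl7, rose by 0.34 (adjusted p in limma = 0.0379). In the signalling of chemokine receptors, whose list includes the family member Cxcr4, 3 of 33 rose and none fell. They included Arrb1, an arrestin that turns receptors off, at 0.34, and Rgs10, which shortens Gi signalling, at 0.28 (log2 fold changes, adjusted p in limma = 0.0250 and 0.0166). The list's other genes, with Gi subunits, kinases and Rac regulators among them, did not pass apart from Gng2, a G protein gamma subunit.

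Among NF-kB genes and cytokines that induce chemokines, 1 of 30 rose and 2 fell. The kinase Ikbke rose by 0.38, while Nfkbiz, a nuclear partner of NF-kB, had a log2 fold change of -0.30 and the kinase Ikbkb one of -0.24 (adjusted p in limma = 0.0337, 0.0146 and 0.0262). Tnf, Il1b, Il6 and Ifng did not pass. Of 18 genes that cut chemokines or display them on heparan sulfate, 2 rose and 1 fell. These were Hspg2, the heparan sulfate proteoglycan perlecan, at 0.35, the protease Adam10, which sheds Cx3cl1 and Cxcl16, at 0.21, and the heparan sulfate sulfotransferase Hs2st1 at -0.42 (log2 fold changes, adjusted p in limma = 0.0178, 0.0300 and 0.00633). Of 17 adhesion molecules for leukocyte entry, 3 rose and none fell. Icam2, an endothelial ligand of leukocyte integrins, rose by 0.43, and the scavenger receptors Stab1 and Stab2 of liver endothelium by 0.32 and 0.28 (adjusted p in limma = 0.00731, 0.0108 and 0.0323). The share called was 36.4% for the first of these lists and 9.09%, 10%, 16.7% and 17.6% for the others, against 14.6% of all genes. Called or not, the log2 fold change was positive for 7 of 11, 28 of 33, 13 of 30, 8 of 18 and 15 of 17 genes, in the same order. Over all genes it was positive for 8583 of 15970.

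The part of leukocyte markers in the values of the family was not tested. Their shares called were 42.9% for monocytes, 33.3% for dendritic cells and 11.1% for Kupffer cells and macrophages, against 14.6% of all genes. Of 7 monocyte markers, 2 rose and 1 fell, which were the Fc receptor Fcgr1 at 0.51, Plac8 at 0.43 and Ms4a4c at -0.60 (log2 fold changes, adjusted p in limma = 0.00736, 0.0181 and 0.00719), and Ly6c2 was not kept. The mean of that list, as difference from its PBS mean, was 0.05 to 0.26 on anti-GCGR arrays and -0.06 to 0.12 on PBS arrays. Of 9 Kupffer cell and macrophage markers 1 rose, Clec4f, a lectin of Kupffer cells, at 0.23 (adjusted p in limma = 0.0407), with list means of -0.05 to 0.27 on anti-GCGR arrays and -0.13 to 0.30 on PBS arrays. The list's Cd68 was not kept. Of 6 dendritic cell markers, Itgax rose by 0.59 and Siglech had -0.32 (adjusted p in limma = 0.0187 and 0.0241), with list means of 0.00 to 0.18 and -0.08 to 0.12. The list's Xcr1 and Cd209a were not kept.

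The shares called were 11.1% for T cells, 12.5% for neutrophils, 33.3% for platelets and 0% for NK and B cells, against 14.6% of all genes. Of 9 T cell markers 1 rose, Cd4, at 0.57 (adjusted p in limma = 0.0217), while Cd3e, Cd3d and Cd3g did not pass, and the list means were -0.05 to 0.17 on anti-GCGR arrays and -0.12 to 0.18 on PBS arrays. Of 7 NK cell markers none passed and none had an unadjusted p under 0.05 (Eomes had the smallest p, with -0.13 and an adjusted p in limma of 0.257), with list means of -0.12 to 0.17 on anti-GCGR arrays and -0.13 to 0.20 on PBS arrays, and Ncr1 and Klrb1c were not kept. None of 6 B cell markers passed (Pax5 had 0.05, adjusted p in limma = 0.629), with list means of -0.07 to 0.08 on anti-GCGR arrays and -0.08 to 0.10 on PBS arrays. Of 8 neutrophil markers 1 fell, the receptor Csf3r, at -0.27 (adjusted p in limma = 0.0283), with list means of -0.20 to 0.46 on anti-GCGR arrays and -0.40 to 0.76 on PBS arrays, and Ly6g and Ngp were not kept. Of 6 platelet markers 2 rose, Pf4 and Ppbp, which are also in the list of atypical receptors and platelet chemokines. The other 4 did not pass, with Treml1 at 0.18, Gp9 at 0.17, Gp1bb at -0.14 and Itga2b at -0.15. The list means were 0.08 to 0.30 on anti-GCGR arrays and -0.08 to 0.10 on PBS arrays.

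Other cell types of the liver were read from 5 marker lists. Of 10 markers of stellate cells and fibroblasts, 5 rose and none fell, among them the collagens Col1a1 at 1.57 and Col3a1 at 1.09 (adjusted p in limma = 0.00671 and 0.00623). The list mean was 0.22 to 0.86 on anti-GCGR arrays and -0.13 to 0.16 on PBS arrays, with no overlap. Of 10 markers of liver endothelial cells, 3 rose and none fell, among them Cdh5 at 0.38 and Stab2 at 0.28 (adjusted p in limma = 0.0422 and 0.0323), although Cdh5 was at -0.07 with the scanner software's ratio. Their list mean was 0.05 to 0.40 on anti-GCGR arrays and -0.13 to 0.11 on PBS arrays. None of 8 hepatocyte markers passed in the limma fit, and 4 had an unadjusted p under 0.05, with the smallest for Tat, at -0.30 (adjusted p in limma = 0.0628). The list mean was -0.19 to 0.03 on anti-GCGR arrays and -0.13 to 0.10 on PBS arrays. None of 7 cholangiocyte markers passed, and 1 had an unadjusted p under 0.05 (Spp1, at 0.13, adjusted p in limma = 0.0991), with list means of -0.11 to 0.21 on anti-GCGR arrays and -0.12 to 0.09 on PBS arrays. Of 5 adipocyte markers 1 rose, Cidea, at 2.54 (adjusted p in limma = 0.0315). The other 4 did not pass, with Adipoq at -0.21, Plin1 at 0.04 and Retn at 0.16. Cfd had the next largest rise after Cidea (adjusted p in limma = 0.0528). The adipocyte list means were 0.13 to 1.31 on anti-GCGR arrays and -0.33 to 0.31 on PBS arrays. Cidea, at 2.54, had the largest log2 fold change of the 5 genes averaged in these means, and means without Cidea were not computed. Whether the adipocyte list means follow the number of adipocytes was not tested. The shares called were 50% for stellate cells, 30% for endothelial cells, 20% for adipocytes and 0% for hepatocytes and cholangiocytes, against 14.6% of all genes. Replicate 5 was the lowest antibody array in 10 of the 18 lists, among them the stellate, endothelial, adipocyte, Kupffer cell, NK cell and dendritic cell lists.

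The calls outside the family were also checked for single arrays. Of the 26 genes named from the lists that passed, 11 kept the call when any 1 of the 11 arrays was left out and 15 lost it at least once. Cdh5 lost it in 9 of those 11 fits, Cidea, Ackr2, Ikbke and Ppbp in 8, and Stab2 and Clec4f in 7. Those that kept it in all were Col1a1, Col3a1, Fcgr1, Plac8, Ms4a4c, Pf4, Rgs10, Icam2, Stab1, Nfkbiz and Hs2st1. With the mean of all kept probes, however, Ms4a4c was at -0.05 and did not pass (adjusted p in limma = 0.619).

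**Figure D5:**
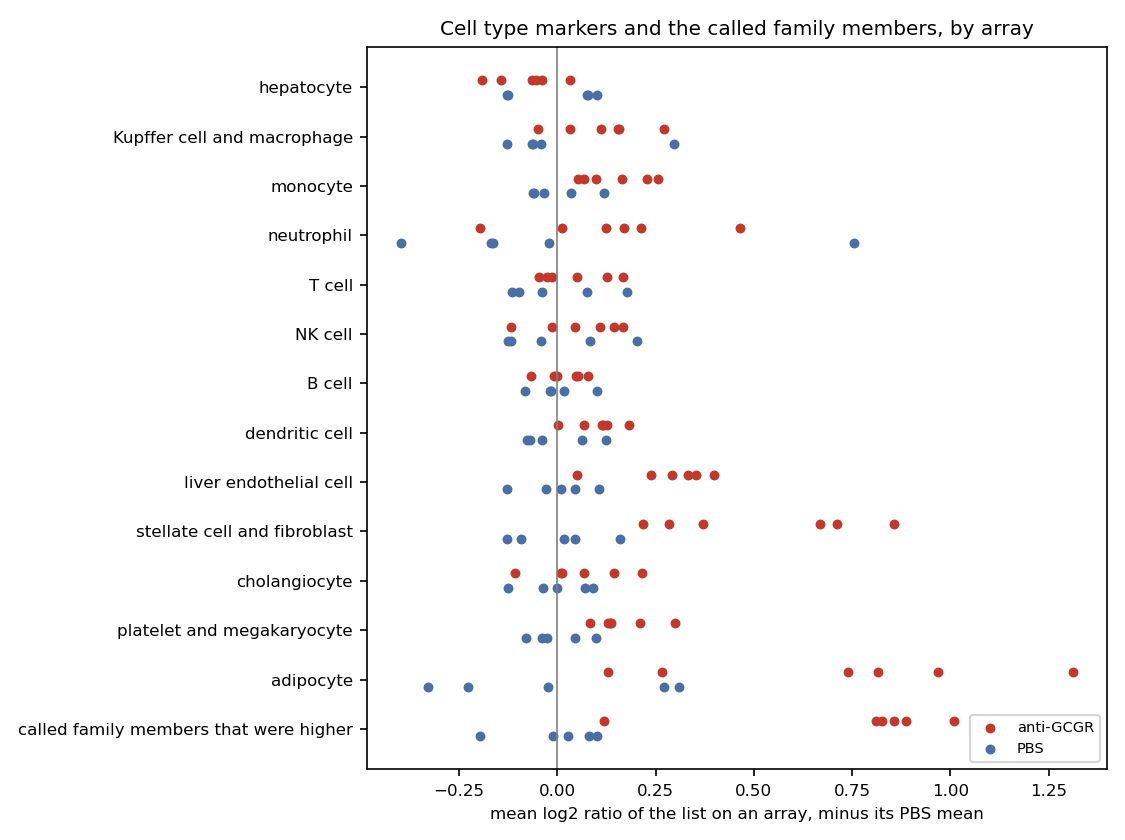
Mean log2 ratio of each cell type marker list on every array, minus its PBS mean (x axis, log2 units), with anti-GCGR arrays in red above PBS arrays in blue; the bottom row is the mean over the 7 family members that were higher. The stellate cell list leaves no overlap between the groups, with 0.22 to 0.86 on anti-GCGR arrays and -0.13 to 0.16 on PBS arrays, while the lymphocyte lists overlap.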

How the data were processed

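Liver RNA of 6 anti-GCGR and 5 PBS samples was measured on 2-colour Agilent arrays with no dye swap. Images were extracted with Agilent Feature Extraction 11 (per the submitters' processing notes), and the file headers give 11.5.1.1. The deposited files of each array hold unlogged median intensity values of each spot and its local background, per the file headers. The deposited log10 ratio of Cy5 over Cy3 was computed by the scanner software after its own background subtraction and dye normalization, and the files also hold flags of 0 or 1 for spot quality. A further table deposited by the authors gives log2 ratios per probe, made in a way that the sources used here do not state. It ran as liver over reference, genes were not centred, and its values correlated with those computed here at 0.999963 to 0.999989. Their column medians were -0.00096, 0.0075, 0.0015, -0.0028, 0.0054 and 0.0013 for anti-GCGR replicates 1 to 6, and -0.0026, 0.0022, 0.00079, 0.0081 and 0.00021 for PBS replicates 1, 3, 4, 5 and 6. The table served as an alternative.

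Background was corrected with normexp (offset 50) and arrays were loess-normalized in limma 3.58.1 (R 4.3.3), with control spots and unevenly printed spots at weight 0 and probes averaged over their spots. Of 39429 gene probes, 26581 matched 20144 genes by unversioned RefSeq accession in a table of GRCm38.p6. The array design is on mm9 per the file headers, so no probe coordinates are given. Dim probes were filtered as the report describes, and groups were compared with lmFit and eBayes, two-sided, with Benjamini-Hochberg adjustment over 15970 genes and a threshold of 0.05. Second probes were adjusted over 28588 kept probes. The fit was tested on simulated data. Slides were read from the file headers: slide 1 held replicates 1 and 4 of each group, slide 2 anti-GCGR 2 and 5 with PBS 5, and slide 3 replicates 3 and 6 of each group.

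Values on every array are given for members past the threshold, for members whose groups do not overlap, and for preselected members where tested. For each of 18 gene lists the text names the 2 largest rises and 2 largest falls past the threshold, or the member with the smallest p. Members and lists were chosen with earlier results of these data known. Ccr10 and Ccr7, and further genes outside this rule, were named after their values were seen. Alternatives covered background, scaling, dye channel, filter, probe choice, slide, replicate block and leaving out each array. A member and a marker gene that stayed in the fit are not reported here and not counted among members and markers. The number of arrays limits the precision.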

Additional observations from a re-analysis of the deposited data

Results flagged for a closer look

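In 7 of 74 groups of values (37 members in each of 2 groups), 1 array stood apart from the rest by Dixon's test at the 95% level, which chance does in about 1 of 20 groups. Anti-GCGR replicate 5 was that array in 4 of them. Ccr8 was at 0.22 on it, with the next antibody array at -0.57, and Ccl9 was at 1.92, with the next at 1.49. Ccr10 was at -0.12 on it, with the next at -0.41. For these 3 genes the value of replicate 5 lay among those of the PBS arrays. Ccl19 was lowest on it, at -0.51, with the next at -0.41. Anti-GCGR replicate 6 stood apart for Ccl8, at -0.068, with the next antibody array at -0.53. PBS replicate 6 stood apart for Cxcl10, at 1.28 with the next PBS array at -0.34, and for Ccl4, at -3.04 with the next at -3.53. All values are log2 ratios of liver over reference.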

How the results depend on the processing

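The count of 11 members past the threshold lay between 8 and 12 under the other planned settings that kept all 11 arrays. There 21.2% to 33.3% of members were called, against 10.9% to 17.5% of all genes. Leaving out 1 array at a time, the count of members ranged from 7 (without PBS replicate 1) to 13 (without anti-GCGR replicate 5). These were 18.9% and 35.1% of members, against 7.81% and 24.2% of all genes. The count was 14 (37.8%, against 21.6% of all genes) without anti-GCGR replicate 5 and PBS replicate 6, a setting chosen after seeing the data. Over all genes the count of 2337 ranged from 1247 (without PBS replicate 1) to 3871 (without anti-GCGR replicate 5), with 1402 without anti-GCGR replicate 4, 1427 without PBS replicate 3 and 1538 without PBS replicate 4. In the fit with the replicate number as a block, anti-GCGR replicate 2 has no partner. That fit gave 5 members (13.5%) and 1046 genes in all (6.55%). Of the 5 members Cx3cr1, Ccr2, Ccl6 and Cxcl14 were up and Cxcl12 was down. The deviations of samples with the same number correlated at 0.12, 0.03, -0.01, -0.13 and 0.14 for numbers 1, 3, 4, 5 and 6. Only number 6 correlated best with its own number, and replicate 6 was highest in both groups for 10 of 37 members. The members that lost the call with the replicate block were Ccl9, Ccl24, Ccl25, Ccr6, Ccr8 and Cxcl5. The cause was not tested. Of the other alternatives, the sign changed for Cx3cl1 (-0.037 with median centring, -0.060 with quantile scaling), Cdh5 (-0.069) with the scanner software's ratio, and Pax5 (-0.033 in Cy5 alone). Leaving out 1 array gave -0.038 to 0.54 for Cxcl10 and -0.069 to 0.78 for Cxcl9. None of these sign changes was tested for its cause. Cxcr4 passed only with the scanner software's ratio (0.38, adjusted p in limma = 0.0383). Over the 19 members named by the rule in the methods and all alternatives, 428 comparisons kept direction and side of the threshold, 34 lost the call, 6 gained it and 5 changed sign. For the 31 genes named outside the family the counts were 628, 135, 8 and 2. Other members were not tallied. Dim spots limit the 15 genes not kept, and Cxcl5, Ccr2, Ccl28, Ccl8, Ccr4, Cxcl13 and Cxcr5, which were not well above background on some arrays.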
